A study of Mus musculus with 2 samples.

Results

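Long non-coding RNA (lncRNA) genes that are abundant in MIN6 cells are described here. A gene was included when the authors' table gave it the type lncRNA and its mean over both libraries was at least 5 FPKM, a count of fragments scaled by transcript length and by library size. This held for 158 of 9959 lncRNA genes, among 55466 genes in all. MIN6 is a mouse insulinoma line, grown in culture as a stand-in for pancreatic beta cells, and secretes insulin. Both groups were untreated apart from glucose: cells were equilibrated at 2.8 mM glucose for 0.5 h in a bicarbonate-buffered salt solution and then kept for 1 h at 2.8 mM or at 25 mM. There was 1 library of total RNA per concentration, so values carry no replicate error and differences, being between 2 libraries, were not tested. The genes were chosen by their level, and the named ones also by their difference between the libraries, so both are given as a description.

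From the spacing of low values, about 19660000 fragments lay behind the library at 2.8 mM glucose and 16770000 behind that at 25 mM. Of 15 beta-cell markers 12 had a mean of at least 5 FPKM, with the insulin gene Ins2 at 60328 and 50846 FPKM (2.8 mM first, as in all pairs of values here) and Pdx1 at 92.7 and 88.0 FPKM. Of 20 markers of other cell types 15 were listed at 0 in both libraries and 1 had a mean of at least 5 FPKM, the glucagon gene Gcg at 2804 and 2764 FPKM. In bulk RNA, fewer cells of a type and less RNA per cell cannot be told apart.

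LncRNAs are transcripts that are not read into protein. Some stay at their site of transcription or in nuclear bodies, as Malat1 and Neat1 do. Others are spliced mainly to release small nucleolar RNAs (snoRNAs) from their introns, and others lie opposite or head to head with a coding gene. Imprinted lncRNAs are made from the maternal or the paternal chromosome alone and several silence their coding neighbours. In beta cells the lncRNAs best known are those beside Pdx1 and Pax6, which encode transcription factors of islet identity.

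LncRNA genes together held 0.775% of the summed FPKM at 2.8 mM and 0.731% at 25 mM. The 158 abundant genes made up 72.2% and 71.0% of that lncRNA sum. The 10 most abundant held 38.0% of the sum of the 158 at 2.8 mM and 37.1% at 25 mM. Of the 9959, 7226 are listed at 0 in both libraries and 591 had a mean of at least 1 FPKM. A listed 0 is not read as absence, since the small nuclear RNA Rnu11 is also listed at 0 in both. Within the 158, levels were skewed: 76 genes had a mean of 5 to 10 FPKM, 52 of 10 to 30 FPKM and 30 of at least 30 FPKM, of which 7 exceeded 100 FPKM. The median of the 158 was 10.5 and 10.1 FPKM, whereas the 8747 protein-coding genes with a mean of at least 5 FPKM had medians of 23.2 and 22.9 FPKM. At the limit of 5 FPKM the lowest included genes were 9430091E24Rik (mean 5.03 FPKM), Gm47512 (5.04 FPKM) and D130017N08Rik (5.04 FPKM), and the nearest genes left out were 5330438D12Rik (4.997 FPKM), Gm5914 (4.99 FPKM) and Gm31749 (4.95 FPKM).

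The 158 genes were longer and had more annotated transcripts than the other lncRNA genes. Their longest transcript had a median of 1784 nt, against 944 nt for the 9774 other lncRNA genes found in the annotation. The median number of annotated transcripts was 3 against 1, and 22.8% had a single transcript against 73.0%. Single-exon genes made up 15.8% of the abundant genes and 7.53% of the others. Unnamed gene models, known by a clone or a Gm number, accounted for 113 of the 158. By position, 20 contained annotated snoRNAs, 9 contained annotated microRNAs, 63 overlapped a protein-coding gene on the other strand and 37 started head to head within 2000 nt of one. These classes overlap, and 55 genes belonged neither to the snoRNA, opposite-strand or head-to-head classes nor to the imprinted list.

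The most abundant lncRNA gene by mean was AY036118, at 296 and 259 FPKM. It lies on GRCm38 chromosome 17, 39847113 to 39848035, inside the annotated ribosomal RNA gene CT010467.1 (39846353 to 39848827). All of its 31-mers, the 31-base words used here to measure sharing between transcripts, also occur in other annotated genes (100%), so its reads cannot be assigned to it alone. CT010467.1 itself was at 3000 and 2463 FPKM. Gm42418 (22.1 and 21.6 FPKM) and Gm26917 (28.6 and 26.4 FPKM) lie over it and beside it, the first with 96.3% of its 31-mers shared and the second with 0%. How much of these 3 values is ribosomal RNA was not tested.

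Malat1, a nuclear-speckle RNA among the best-studied lncRNAs, was second at 259 and 158 FPKM (chromosome 19, 5795690 to 5802672, minus strand). Gas5, a snoRNA host whose spliced RNA is degraded during translation, stood at 185 and 161 FPKM. The snoRNA hosts 2410006H16Rik (128 and 125 FPKM), Snhg1 (126 and 126 FPKM) and Snhg8 (100 and 89.0 FPKM) also ranked among the first 8. Malat1 was lower at 25 mM, whereas 2410006H16Rik and Snhg1 were nearly level between the libraries.

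Gm10076 (143 and 97.0 FPKM) shares 84.2% of its 31-mers with other genes, chiefly the ribosomal protein gene Rpl41, which was at 1721 and 1624 FPKM. Gm49980 (113 and 121 FPKM) shares 57.9%. Bc1, a neuronal RNA made by RNA polymerase III that is carried into dendrites, was at 72.9 and 87.5 FPKM. At 168 nt it is shorter than the fitted fragments of 290 and 270 nt, and its FPKM is poorly estimated. Of the first 10 genes, Gm49980 and Bc1 were the ones more than 1 FPKM higher at 25 mM. Igf2os, transcribed opposite Igf2, came last of these 10 at 71.4 and 68.8 FPKM.

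**Figure D1:**
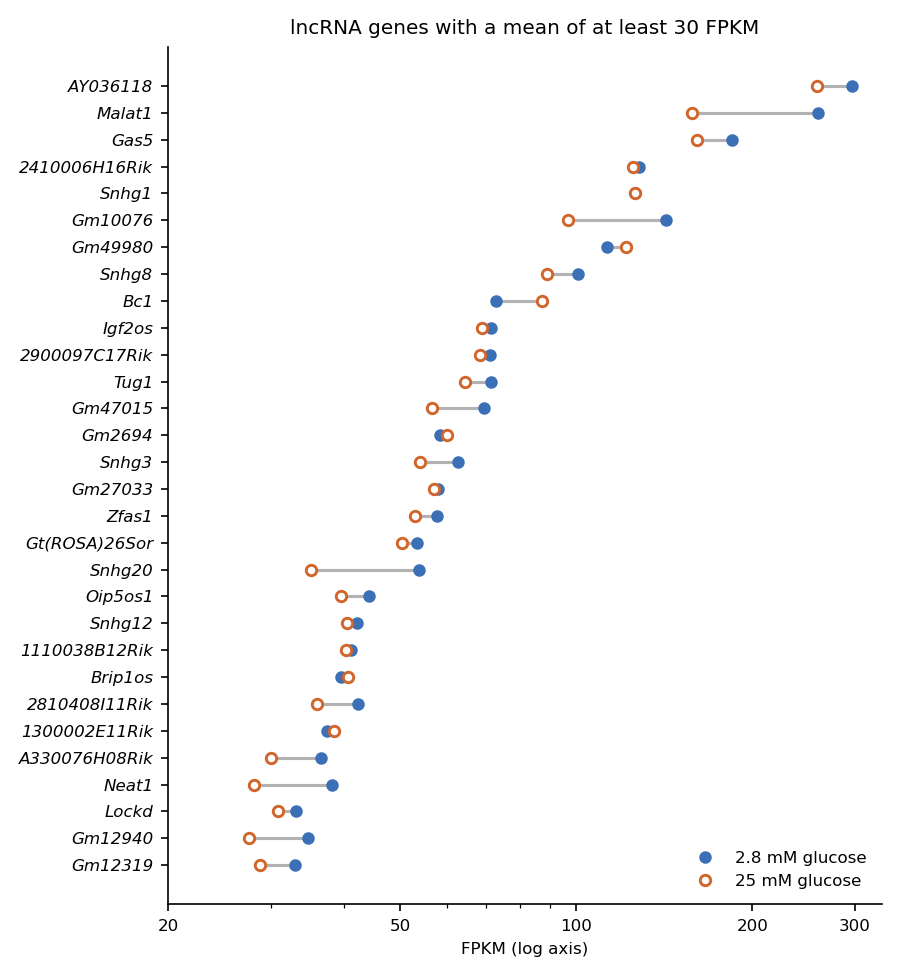
FPKM (log axis) of the 30 lncRNA genes with a mean of at least 30 FPKM, in order of the mean, with filled points for the 2.8 mM library and open points for the 25 mM library; there are no replicates and no error bars. Most open points lie left of the filled ones, with wide gaps for Malat1 (259 and 158 FPKM) and Snhg20 (53.8 and 35.2 FPKM).

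The comparison asked how levels after 1 h at 25 mM glucose differed from those after 1 h at 2.8 mM. Each difference is the log2 of the ratio of the 25 mM value to the 2.8 mM value after adding 1 FPKM to both, and is negative where the gene was lower at 25 mM. At 1.5-fold or more, 2 of the 158 genes were higher at 25 mM and 7 were lower, or 1.27% and 4.43%. Among all 9438 genes with a mean of at least 5 FPKM the shares were 0.805% higher and 1.37% lower (76 and 129 genes), and among protein-coding genes 0.389% and 0.72%. At 2-fold or more, 1 lncRNA gene was higher (0.633%) and 2 were lower (1.27%), against 0.318% and 0.466% of all genes and 0.103% each way of protein-coding genes. The lncRNA genes 2-fold apart, Halr1, Bach2os and Gm28872, were under 5 FPKM in 1 library and met the limit through the other. At least 5 FPKM in both libraries was reached by 137 of the 158 genes. With both libraries rescaled to the same summed FPKM, all genes split into 99 higher and 97 lower, and the lncRNA genes into 2 and 5. The median log2 difference of the 158 genes was -0.11, with 67.7% of them lower at 25 mM, and that of all 9438 genes was -0.01, with 54.2% lower. The rescaling moved these medians to -0.04 and 0.05 and left 91 of the 158 lower. The 2 genes 1.5-fold higher were Halr1 and A930005H10Rik, and the 7 lower were Gm28872, Bach2os, Rab26os, Malat1, AI480526, Snhg6 and Snhg20.

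The same contrast was read within bands of level. Among genes with a mean of 10 to 30 FPKM the median log2 difference was -0.13 for 52 lncRNA genes and -0.02 for 3530 protein-coding genes. Among those of at least 30 FPKM it was -0.13 for 30 lncRNA genes, 24 of them lower at 25 mM, and -0.0042 for 3566 protein-coding genes, 51.6% of them lower. Between 5 and 10 FPKM it was -0.07 for 76 lncRNA genes and -0.03 for 1651 protein-coding genes. Differences under 1.2-fold made up 68.4% of lncRNA and 81.1% of protein-coding genes between 5 and 10 FPKM, 55.8% and 89.5% between 10 and 30 FPKM, and 76.7% and 94.4% from 30 FPKM. Within 1.5-fold, the shares of lncRNA and protein-coding genes between 5 and 10 FPKM were 97.4% and 97.2%. They were 90.4% and 98.95% between 10 and 30 FPKM, and 93.3% and 99.6% from 30 FPKM. The 133 spliced genes had a median of -0.13 and the 25 single-exon genes -0.05.

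**Figure D2:**
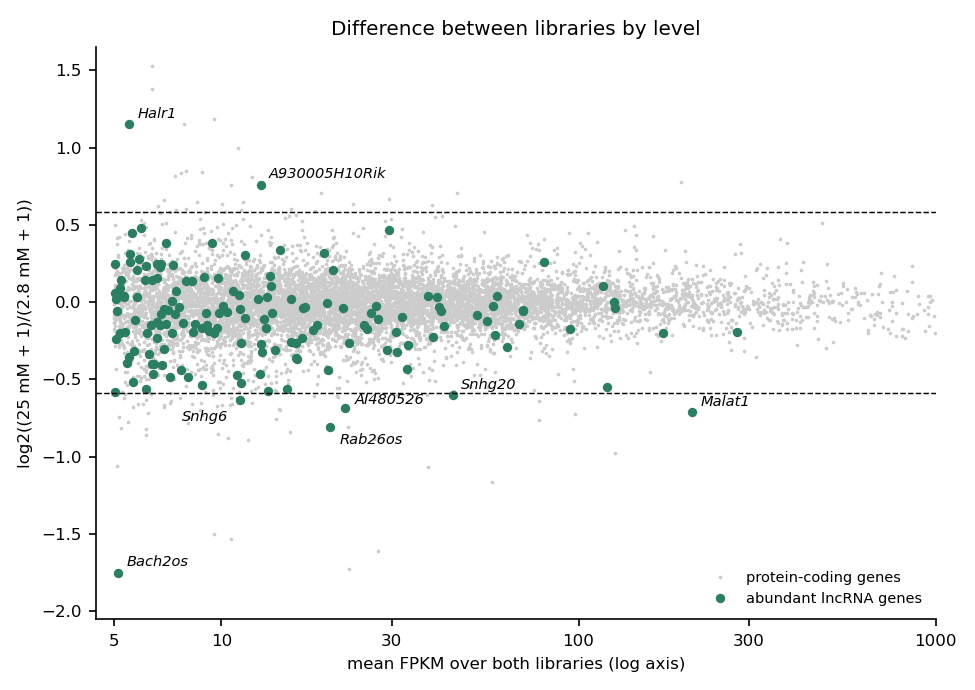
Log2 difference between the libraries against mean FPKM (log axis) for abundant lncRNA genes (green) and protein-coding genes with a mean of at least 5 FPKM (grey); dashed lines mark 1.5-fold and the named points lie beyond them. Gm28872, listed at 0 at 25 mM, and 60 protein-coding genes outside the axes are not drawn; the green points from 30 FPKM upward lie mostly below 0.

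Halr1, a lncRNA beside the Hoxa gene cluster, had the highest log2 difference. It stood at 3.04 and 7.98 FPKM, a log2 difference of 1.15 (chromosome 6, 52102949 to 52113684). Its 31-mers are its own (0% shared), but its longest transcript has 511 nt. The fitted library size then allows at most 13 fragments at 2.8 mM and 32 at 25 mM. At these numbers the exact Clopper-Pearson 95% interval of the log2 ratio, without a pseudocount and for counting error only, was 0.43 to 2.46, and fewer fragments would widen it. Hotairm1, an RNA of that cluster, was at 9.41 and 8.28 FPKM.

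A930005H10Rik, an unnamed model opposite Dph5, was at 9.31 and 16.5 FPKM (log2 difference 0.76). With its longest transcript of 2094 nt, at most 330 and 504 fragments lay behind these values. The diphthamide synthesis gene Dph5 was at 10.3 and 8.74 FPKM. The next highest were 1810041H14Rik (4.81 and 7.11 FPKM), Gm2762 (24.6 and 34.4 FPKM) and Gm49164 (4.61 and 6.65 FPKM). None of these 3 was 1.5-fold apart, and Gm49164 shares 47.6% of its 31-mers, mostly with Cbx3.

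Gm28872 was at 37.5 FPKM at 2.8 mM and is listed at 0 at 25 mM, so no fold is given. It is a single exon of 158 nt opposite the small nuclear RNA gene Rnu11 and shares 81.2% of its 31-mers with it. Rnu11 is listed at 0 in both libraries. Gm28872 is shorter than a fragment, and without it 6 genes were at least 1.5-fold lower.

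Bach2os had the lowest log2 difference among genes above 0 in both libraries. It stood at 8.48 and 1.82 FPKM, a log2 difference of -1.75 (chromosome 4, 32559680 to 32571708, minus strand). It is transcribed from within Bach2 on the other strand and overlaps exons of Bach2 by 537 nt. Bach2, a transcriptional repressor gene known from B cells, was at 7.68 and 13.7 FPKM, a log2 difference of 0.76. The coding gene was higher where the opposite transcript was lower. Their exons hold 20.9% of the 31-mers of Bach2os in common, and no source used here says whether the libraries kept the strand of a read. At most 229 and 42 fragments came from Bach2os. At these numbers the counting interval of the log2 ratio was -2.75 to -1.76, and fewer fragments would widen it. The part that dividing reads between the 2 genes plays in this was not tested.

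The 300 bases around the annotated start of Bach2os are shown because this start lies inside another gene, with 250 bases before the start and 50 after it (RefSeq, GRCm38.p6, chr4:32571613-32571912, minus strand). Of the motifs searched below, printed in capitals where found, neither TGACGTCA nor CACGTG is in this window. CTTT was searched only within 5 bases of the start and does not begin there.
Bach2os: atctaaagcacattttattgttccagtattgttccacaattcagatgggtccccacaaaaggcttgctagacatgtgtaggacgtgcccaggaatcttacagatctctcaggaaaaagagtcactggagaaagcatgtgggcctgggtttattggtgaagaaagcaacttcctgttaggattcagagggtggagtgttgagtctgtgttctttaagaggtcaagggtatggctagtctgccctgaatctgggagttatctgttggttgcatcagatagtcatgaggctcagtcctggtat

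Rab26os was at 25.8 and 14.3 FPKM (log2 difference -0.81; chromosome 17, 24528248 to 24528744). It carries the snoRNA gene Snord60 and starts 310 nt from Traf7, which encodes a ubiquitin ligase and was at 28.8 and 29.5 FPKM. Rab26, opposite it, was at 0.446 and 0.524 FPKM. Neither neighbour was 1.5-fold apart. AI480526 was at 27.5 and 16.7 FPKM (log2 difference -0.68), but 86.6% of its 31-mers are shared, mostly with Gm38102 on the other strand. Gm38102, also one of the 158, was at 9.04 and 6.40 FPKM.

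Malat1 stood 1.5-fold or more apart at the highest level of the 7, with 259 and 158 FPKM and a log2 difference of -0.71. At most 34078 and 17739 fragments lay behind these values. At these numbers the counting interval of the log2 ratio was -0.74 to -0.69, and fewer fragments would widen it. Neat1, the RNA scaffold of paraspeckles that lies beside Malat1, was at 38.1 and 28.1 FPKM (log2 difference -0.43). Both nuclear RNAs were lower at 25 mM, Neat1 by less than 1.5-fold. The small nuclear RNA Rn7sk, which is no lncRNA in the table and was named after its values were seen, was lower with them at 513 and 221 FPKM (log2 difference -1.21), and the part of RNA make-up in these values was not tested. Of 20 genes for paraspeckle proteins 19 had a mean of at least 5 FPKM. Of these 0 were 1.5-fold apart, with a median log2 difference of -0.01, while 98.9% of protein-coding genes at that level were within 1.5-fold. The extremes were Rbm14 (24.2 and 35.6 FPKM) and Hnrnpm (332 and 434 FPKM) above, and Ewsr1 (288 and 254 FPKM) and Tardbp (390 and 359 FPKM) below.

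Of 34 lncRNA genes on a list of mostly widely studied ones, 12 were among the 158. Their median log2 difference was -0.15, with 10 lower at 25 mM. Of the 158 genes 67.7% were lower, and of all genes with a mean of at least 5 FPKM 54.2% were. The list was chosen with earlier results known, and the 10 include Bach2os and the unnamed model Gm26917. Firre, an X-linked RNA with many repeats that organises nuclear contacts, was at 32.2 and 25.8 FPKM. Tug1, opposite Morc2a, was at 71.4 and 64.5 FPKM. Lockd, beside the cell cycle inhibitor gene Cdkn1b, was at 33.1 and 30.9 FPKM, and Crnde, head to head with Irx5, at 10.3 and 12.96 FPKM. Among the 12, Crnde and Halr1 were the ones higher at 25 mM. Several known lncRNAs were below the limit of 5 FPKM. Xist was at 0.0173 and 0.0122 FPKM, Pvt1 at 1.49 and 0.517 FPKM, Paupar near Pax6 at 1.61 and 2.48 FPKM, and Cdr1os at 0.0426 and 0.0192 FPKM.

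2900097C17Rik, the mouse counterpart of NORAD, binds Pumilio proteins through repeated motifs and was at 71.2 and 68.4 FPKM. Its longest transcript of 4915 nt held 11 copies of TGTANATA on its own strand, the most of the 158 genes, 119 of which held 0. Gm7292 (7.27 and 7.68 FPKM) followed with 9 copies, and it shares 85.9% of its 31-mers with 2900097C17Rik. Neither differed by more than a log2 value of 0.07, and under the rescaling 2900097C17Rik stood at 0.01.

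Oip5os1, also called Cyrano, is known for a site that pairs with the microRNA miR-7 and leads to its destruction. It was at 44.1 and 39.6 FPKM (log2 difference -0.15). The deposited values hold no mature microRNA, so miR-7 itself was not analysed here. The site lies at chr2:119602136-119602161 (plus strand, GRCm38), positions 2934 to 2959 of a transcript of 8300 nt (GENCODE release 21), and is shown with the RefSeq sequence of the microRNA; capitals mark the seed, bases 2 to 8 of the microRNA, and its match.
mmu-miR-7a-5p: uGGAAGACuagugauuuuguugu
Oip5os1 site: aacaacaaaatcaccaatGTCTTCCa
A run of 13 bases upstream of the match is complementary to the 3′ part of the microRNA, and the seed match occurs at 2 places in the transcript.

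SnoRNA hosts were the class with the lowest median. Most snoRNAs guide the methylation or pseudouridylation of ribosomal RNA and are cut from introns, after which the spliced host RNA is often degraded. The 20 hosts had a median log2 difference of -0.20, with 16 lower at 25 mM, 3 lower by 1.5-fold or more and 0 higher by as much. The 138 other genes had a median of -0.09, with 4 lower and 2 higher by 1.5-fold. Of all genes with a mean of at least 5 FPKM, 1.37% were lower and 0.805% higher by as much. Under the rescaling to equal sums the median of the hosts was -0.13 and 13 of the 20 were lower, with 2410006H16Rik (0.03), 1110038B12Rik (0.04) and Snhg12 (0.01) turning to the other side of 0. No test of the difference between these classes was made, as genes are not replicates.

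The differences were spread unevenly over the hosts. Snhg20 was at 53.8 and 35.2 FPKM (log2 difference -0.60) and Snhg6 at 13.96 and 8.65 FPKM (-0.63). Both fell under 1.5-fold after rescaling (-0.53 and -0.57) and with a pseudocount of 5 (-0.55 and -0.47), and Snhg20 also after centring (-0.58). Snhg5 was at 18.4 and 12.2 FPKM (-0.56, or -0.60 and past 1.5-fold with a pseudocount of 0.1) and Snhg15 at 13.5 and 9.12 FPKM (-0.52). With Rab26os these were the 5 hosts with the lowest values. Snhg3 (62.7 and 54.0 FPKM), Zfas1 (57.8 and 53.0 FPKM) and Epb41l4aos (17.1 and 14.1 FPKM) were also lower, by less. Snhg12 (42.1 and 40.5 FPKM) and 1110038B12Rik (41.1 and 40.3 FPKM) were nearly level. AA465934 stood at 8.94 and 7.69 FPKM and 2900076A07Rik at 7.86 and 6.70 FPKM. The hosts that were higher at 25 mM by more than 0.01 in log2 were Snhg4 (5.93 and 7.23 FPKM), Snhg10 (5.77 and 6.46 FPKM) and Snhg17 (9.21 and 10.4 FPKM). Another entry named Snhg4, of protein-coding type, was at 1.43 and 4.58 FPKM. It overlaps exons of the host entry by 246 nt on the same strand, and the division of reads between them was not tested. Behind Snhg20 were at most 1972 and 1112 fragments, and behind Snhg6 at most 145 and 79.

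**Figure D3:**
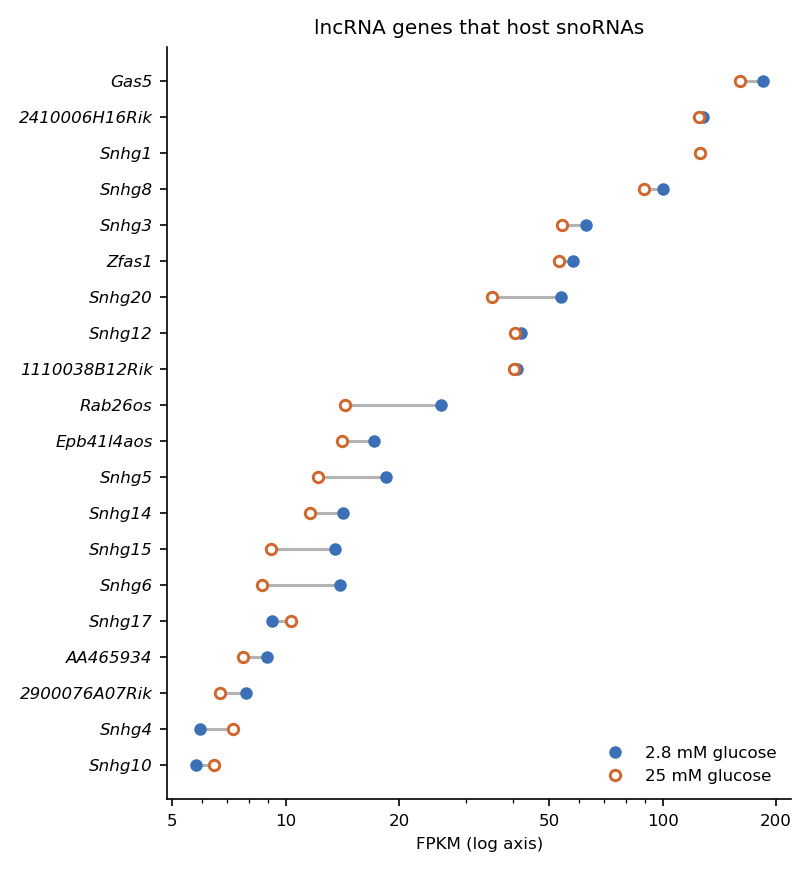
FPKM (log axis) of the 20 abundant lncRNA genes with annotated snoRNAs, in order of the mean, with filled points for 2.8 mM and open points for 25 mM and no replicates. Rab26os (25.8 and 14.3 FPKM), Snhg20, Snhg5, Snhg15 and Snhg6 have the wide gaps, whereas 2410006H16Rik and Snhg1 nearly coincide.

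Protein-coding hosts of snoRNAs, mostly ribosomal protein and translation factor genes, served as a comparison. All 40 had a mean of at least 5 FPKM and 0 were 1.5-fold apart, while 98.9% of protein-coding genes at that level were within 1.5-fold. The median log2 difference of the 40 was -0.05, with 27 lower at 25 mM. Hspa8, for a chaperone, was among the highest in log2 difference at 722 and 811 FPKM. Wdr43 (56.1 and 44.8 FPKM) and Rpl7a (296 and 238 FPKM) were the lowest. The snoRNAs could not be followed in these tables. Of 257 annotated snoRNAs inside the 20 hosts, 253 are listed at 0 in both libraries, 208 of them in Snhg14. In Snhg3, Snora73a was at 43.7 and 0.918 FPKM, and Snora73b at 14.5 FPKM and listed at 0 at 25 mM. Gm26083 in Snhg20 and Gm26003 in Snhg17 are listed at 0 at 2.8 mM and were at 0.0591 and 633 FPKM at 25 mM. The values thus went both ways, and all 4 are shorter than a fitted fragment.

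Box C/D snoRNAs carry 2 short motifs by which proteins of the methylation complex hold them. Examples from 4 hosts are shown because their release is what these hosts are known for, with the C box TGATGA and the last D box CTGA in capitals (GENCODE release 21, GRCm38). Snord47 is in Gas5 (chr1:161038082-161038158, plus strand), Snord49a in 2410006H16Rik (chr11:62603450-62603521, plus), Snord52 in 1110038B12Rik (chr17:34950952-34951017, minus) and Snord50a in Snhg5 (chr9:88521529-88521600, minus).
Snord47: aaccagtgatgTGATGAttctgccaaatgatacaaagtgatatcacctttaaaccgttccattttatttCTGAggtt
Snord49a: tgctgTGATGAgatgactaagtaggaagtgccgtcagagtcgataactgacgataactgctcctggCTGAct
Snord52: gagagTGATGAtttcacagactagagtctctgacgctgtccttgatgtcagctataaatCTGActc
Snord50a: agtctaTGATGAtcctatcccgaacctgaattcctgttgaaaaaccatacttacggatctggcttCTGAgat

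Many snoRNA host genes are known to begin with a pyrimidine-rich start like that of ribosomal protein genes. Of 158 genes 95 had a promoter in RefSeq (GRCm38.p6), of which 17 were snoRNA hosts. The letters CTTT, beginning within 5 bases of the annotated start on the gene's own strand, were found in 8 of the 17 hosts (47.1%) and in 7 of the 78 other genes (8.97%). They were found in 6.07% of all 27025 genes with a promoter. The cyclic AMP response element TGACGTCA, which reads the same on both strands, was in 7 of the 95 (7.37%) against 2.03% of all genes, and the E-box CACGTG, likewise symmetric, in 15 (15.8%) against 8.09%. CREB binds the first and basic helix-loop-helix factors such as USF bind the second, but a match describes letters and not binding. The 95 genes were chosen by their level and the 27025 were not. Expressed genes alone were not compared, so these shares are not read as a property of abundant lncRNA genes.

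Promoters of 3 snoRNA hosts are shown because they differ in these letters, with CTTT at the start, TGACGTCA and CACGTG in capitals. Gas5 (chr1:161034916-161035215, plus strand) holds TGACGTCA and starts at CTTT. Snhg15 (chr11:6528711-6529010, minus) holds all 3, and Rab26os (chr17:24528001-24528300, plus) holds CTTT alone. Another annotated start of Gas5 holds none of them.
Gas5: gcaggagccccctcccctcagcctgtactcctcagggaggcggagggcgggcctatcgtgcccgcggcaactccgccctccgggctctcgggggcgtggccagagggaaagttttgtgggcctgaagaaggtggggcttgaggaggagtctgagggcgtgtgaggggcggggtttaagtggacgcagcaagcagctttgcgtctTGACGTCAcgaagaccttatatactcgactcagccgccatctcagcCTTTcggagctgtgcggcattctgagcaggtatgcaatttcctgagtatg
Snhg15: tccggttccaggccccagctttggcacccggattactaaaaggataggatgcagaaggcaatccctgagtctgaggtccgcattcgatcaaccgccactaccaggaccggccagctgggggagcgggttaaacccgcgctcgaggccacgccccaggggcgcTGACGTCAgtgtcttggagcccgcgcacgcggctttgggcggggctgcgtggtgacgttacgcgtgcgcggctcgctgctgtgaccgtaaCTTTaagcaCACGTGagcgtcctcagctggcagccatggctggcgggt
Rab26os: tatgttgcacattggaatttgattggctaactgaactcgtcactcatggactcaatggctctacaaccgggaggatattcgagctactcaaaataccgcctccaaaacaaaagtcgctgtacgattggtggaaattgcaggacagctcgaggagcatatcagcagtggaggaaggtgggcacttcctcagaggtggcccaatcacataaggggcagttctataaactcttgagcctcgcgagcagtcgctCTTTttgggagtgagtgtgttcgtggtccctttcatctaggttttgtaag
The log2 differences of the 3 genes were -0.20, -0.52 and -0.81.

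Of 13 imprinted lncRNAs on the list that the files hold, 4 had a mean of at least 5 FPKM and 9 were under 1 FPKM, with 6 of the 9 listed at 0 in both libraries. The 4 were Igf2os, Peg13, Snhg14 and Airn, with a median log2 difference of -0.17, and 0 of the 4 were 1.5-fold apart with a pseudocount of 1. With a pseudocount of 0.1 Airn passed 1.5-fold (log2 difference -0.60). All 4 were lower at 25 mM, but under the rescaling to equal sums 3 were, and Igf2os stood at a log2 difference of 0.01. Of the 158 genes, 67.7% were lower and 94.3% were within 1.5-fold. Of all genes with a mean of at least 5 FPKM, 54.2% were lower and 97.8% within 1.5-fold. Counts over 4 genes are not read as a result about imprinted lncRNAs.

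Igf2os (chromosome 7, 142659693 to 142670356) was at 71.4 and 68.8 FPKM, and the growth factor gene Igf2 opposite it at 728 and 761 FPKM. Igf2os shares 24.5% of its 31-mers, mostly with Gm49394 on the other strand. H19, the neighbour of Igf2 made from the maternal chromosome, was at 0.440 and 0.267 FPKM. Igf2 was high while H19 was near 0.

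Snhg14 (chromosome 7, 59307924 to 59975759) is the long transcript that silences the paternal Ube3a in neurons and carries 208 annotated snoRNAs. It was at 14.2 and 11.6 FPKM, a log2 difference of -0.27. Ube3a, opposite it, was at 28.0 and 25.1 FPKM, and Snrpn, upstream of it, at 62.5 and 62.7 FPKM. Airn, which silences Igf2r and its neighbours on the paternal chromosome, was at 6.83 and 4.48 FPKM (log2 difference -0.51), and Igf2r at 53.9 and 52.7 FPKM. Igf2r was level while Airn was lower at 25 mM. Peg13 (26.9 and 25.5 FPKM), in an intron of Trappc9, had 2344 and 1908 recovered fragments and a counting interval of the log2 ratio from -0.16 to 0.01. Trappc9 was at 11.7 and 12.01 FPKM.

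The lncRNAs of the Dlk1 to Dio3 domain, Meg3, Rian and Mirg, are listed at 0 in both libraries, as are the coding genes Dlk1, Rtl1 and Dio3. Kcnq1ot1, which silences genes around Kcnq1, was at 0.141 and 0.0776 FPKM. Of 40 imprinted coding genes 21 had a mean of at least 5 FPKM. Of the 21, 0 were 1.5-fold apart, while 98.9% of protein-coding genes at that level were within 1.5-fold. The median log2 difference of the 21 was -0.03. The highest were Mcts2 (11.9 and 13.4 FPKM) and Inpp5f (23.7 and 26.2 FPKM). The lowest were Plagl1 (29.8 and 26.05 FPKM) and Zdbf2 (9.90 and 8.61 FPKM).

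LncRNAs opposite coding genes formed the largest class. The 63 genes had a median log2 difference of -0.13, with 43 lower at 25 mM, 1 higher and 3 lower by 1.5-fold or more. The 95 others had a median of -0.10. Of all genes with a mean of at least 5 FPKM, 54.2% were lower, 0.805% were 1.5-fold higher and 1.37% were 1.5-fold lower. Exons overlapped for 50 of the 63, where unstranded reads of the 2 genes cannot be told apart. Under the rescaling the median of the 63 was -0.07.

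**Figure D4:**
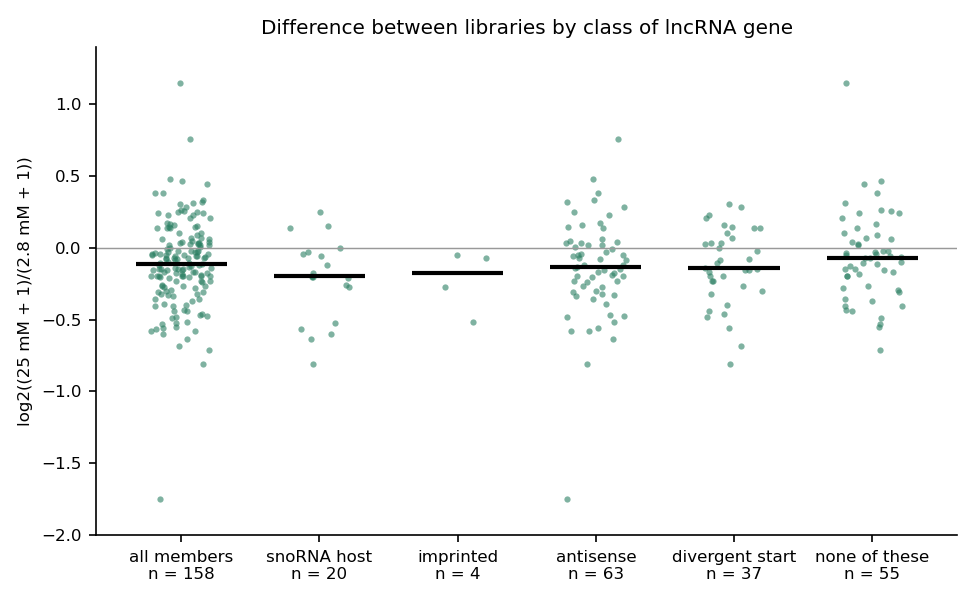
Log2 difference between the libraries for all 158 genes and by class, a point per gene and a bar at the median; a gene can be in more than 1 class, and Gm28872, listed at 0 at 25 mM, is not drawn but counts in the medians. The bars lie below 0 in every class shown, from -0.07 for the 55 genes in none of the 4 classes to -0.20 for snoRNA hosts.

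The 63 genes form 75 pairs with coding genes, and in 54 pairs the coding gene had a mean of at least 5 FPKM. Taken singly, 94.3% of the 158 lncRNA genes and 98.9% of protein-coding genes with a mean of at least 5 FPKM were within 1.5-fold. In 51 of the 54 pairs both genes were within 1.5-fold. The exceptions were Bach2os with Bach2, where both were apart and in opposite directions, A930005H10Rik with Dph5, and Gm26782 with Tep1. Gm26782 was at 6.11 and 7.45 FPKM, and Tep1, a telomerase-associated protein gene, at 7.17 and 3.77 FPKM (log2 difference -0.78). The lncRNA was the more abundant of the pair in 39 of 75. In every pair outside the 54 this was fixed by the limit of 5 FPKM on the lncRNA genes. The count is therefore not read as a result.

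Several pairs involve genes of beta-cell identity and hormone processing. Plut, opposite Pdx1, was at 7.38 and 6.61 FPKM, and Pdx1 at 92.7 and 88.0 FPKM. Pax6os1 was at 6.13 and 7.36 FPKM, opposite Pax6 at 85.5 and 92.5 FPKM. Pcsk2os1 was at 6.02 and 6.77 FPKM, opposite Pcsk2, for a prohormone convertase, at 323 and 324 FPKM. In these 3 pairs the coding gene was many times the more abundant and no gene was 1.5-fold apart. At most 168 and 130 fragments lay behind Plut and 142 and 147 behind Pax6os1. At these numbers both counting intervals of the log2 ratio included 0 (-0.51 to 0.17 and -0.09 to 0.60), and fewer fragments would widen them.

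**Figure D5:**
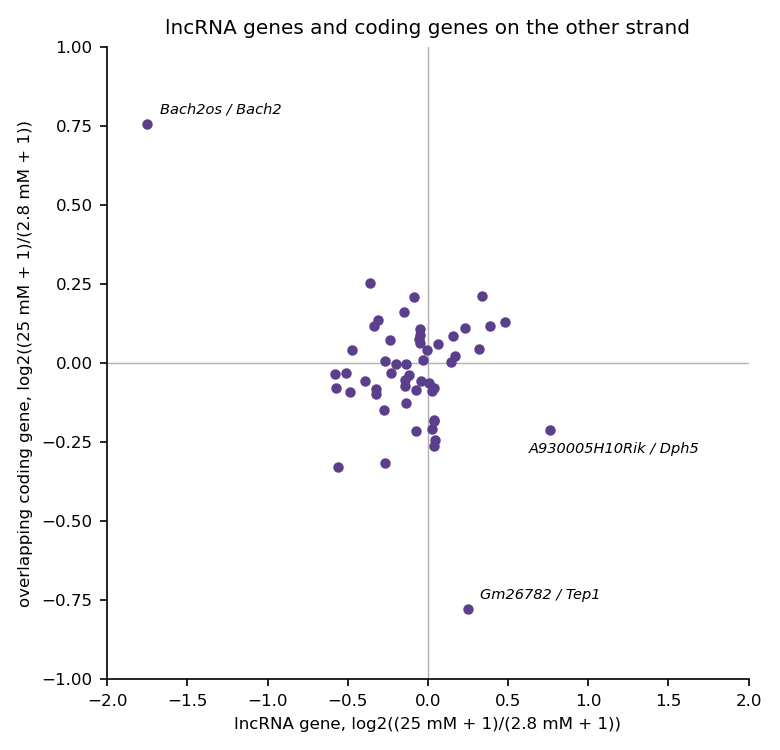
Log2 difference of each lncRNA gene (horizontal) against that of the coding gene it overlaps on the other strand (vertical), for the 54 pairs whose coding gene had a mean of at least 5 FPKM. Points beyond 1.5-fold on either axis are named, with Bach2os and Bach2 (-1.75 and 0.76) alone in the upper left corner.

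The 37 genes that start head to head with a coding gene had a median log2 difference of -0.14, with 23 lower at 25 mM, 2 lower and 0 higher by 1.5-fold. Of all genes with a mean of at least 5 FPKM, 1.37% were lower and 0.805% higher by as much. In 31 pairs the coding gene had a mean of at least 5 FPKM, and 0 of these coding genes were 1.5-fold apart. Of all protein-coding genes at that level, 98.9% were within 1.5-fold. Snhg1 starts 106 nt from Slc3a2, for an amino acid transporter subunit, and both were level (126 and 126 FPKM, and 443 and 448 FPKM). AI480526 starts 527 nt from Setd1b, for a histone methyltransferase, which was at 4.56 and 4.36 FPKM.

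Among the 9 genes with annotated microRNAs, 7 were lower at 25 mM, and Snhg20 was the 1 apart by 1.5-fold. With a pseudocount of 5, after rescaling and after centring, Snhg20 was less than 1.5-fold apart. Of the 158 genes, 67.7% were lower. Of all genes with a mean of at least 5 FPKM, 54.2% were lower, 0.805% were 1.5-fold higher and 1.37% were 1.5-fold lower. Dleu2 (27.2 and 24.0 FPKM) carries Mir15a and Mir16-1, whose products share a seed and restrain cell cycle genes. E130102H24Rik (9.32 and 8.85 FPKM) carries Mir101a. Of 17 lncRNAs known as microRNA hosts Dleu2 was the 1 abundant here, and 8 are listed at 0 in both libraries. The mature sequences (RefSeq, GRCm38.p6; chromosome 14, minus strand, for the first 2 and chromosome 4, minus strand, for the third) are shown with the seed in capitals.
mmu-miR-15a-5p: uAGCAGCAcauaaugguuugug
mmu-miR-16-5p: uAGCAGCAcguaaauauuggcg
mmu-miR-101a-3p: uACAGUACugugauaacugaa

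Whole fragments were recovered for 29 genes that have 1 annotated transcript of 500 nt or more, of which 19 share under 20% of their 31-mers. For 2 of these 19 the counting interval of the log2 ratio excluded 0. Gm2861 had 170 and 111 fragments and an interval of -0.82 to -0.11, and Gm21781 had 520 and 379 fragments and an interval of -0.43 to -0.04. Both were lower at 25 mM. For the other 17 the interval included 0 at this depth.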

How the data were processed

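RNA of MIN6 cells was sequenced at 2 glucose concentrations, 1 library each, grouped by the treatment label. The deposited values are FPKM per gene, per the file headers, and the authors' alignment and quantification used HISAT2 and Cuffdiff on GRCm38, per the submitters' processing notes, without versions. Not given in the sources used here are RNA selection, strandedness and the annotation release. FPKM moves with the division of reads over isoforms and copies, is poor for short genes, and an exact 0 can be a failed estimate. Of the rows, 1 was empty.

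Genes of type lncRNA with a mean FPKM of at least 5 were taken. The genes and lists were chosen with earlier results of these data known. Differences used a pseudocount of 1, which understates those of low genes, and counts a threshold of 1.5-fold. With 1 library per group no test was possible. Positions, classes and transcripts came from GENCODE release 21 for mouse (GRCm38). Named genes were the 10 highest means, the 5 highest and 5 lowest log2 differences, members of the imprinted, snoRNA host and widely studied lists, genes next to the limit of 5, overlapping coding genes and at most 2 extremes each way of each coding list; others were named after their values were seen. Values of 2 coding genes that this rule names are not reported here. Fragments were recovered from FPKM steps of genes with 1 transcript of at least 800 nt (94.6% and 93.8% of 2567 and 2337 values within 0.1 of a whole fragment); for genes with several transcripts the longest gives an upper limit. Intervals are exact Clopper-Pearson 95% intervals and cover counting error only. Software was SciPy 1.17.1, pandas 2.3.3 and NumPy 2.4.6 under Python 3.11.15, with matplotlib 3.10.9 for figures.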

Additional observations from a re-analysis of the deposited data

How the results depend on the processing

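Alternatives were pseudocounts of 0.1 and 5, rescaling to equal sums, centring, means of at least 1 and 10 FPKM, a 2-fold threshold, and a restriction to genes of at least 300 nt sharing under 20% of their 31-mers. Against 2 genes higher at 25 mM, there was 1 with a pseudocount of 5, a mean of at least 10 FPKM or 2-fold, and 28 with a mean of at least 1 FPKM. Against 7 lower there were 13 with a pseudocount of 0.1, 4 with a pseudocount of 5, 40 with a mean of at least 1 FPKM, 4 under the restriction and 2 at 2-fold. Of all genes, 0.975% were higher and 1.66% lower with a pseudocount of 0.1, 0.477% and 0.646% with 5, 1.95% and 2.51% at a mean of at least 1 FPKM (lncRNA genes 4.74% and 6.77%) and 0.623% and 0.967% at 10 FPKM. The 158 genes were 591 at a mean of at least 1 FPKM and 82 at 10 FPKM. The median log2 difference of -0.11 was -0.044 after rescaling, the cause of which was not tested, and the medians of the snoRNA host, imprinted and opposite-strand classes stayed negative under that setting. Of 46 named genes under 4 settings, 0 that were 1.5-fold apart changed sign and 5 others did, all after rescaling: Igf2os, 2410006H16Rik, 1110038B12Rik, Snhg12 and 2900097C17Rik. Airn and Snhg5 (both -0.60) came to be 1.5-fold apart with a pseudocount of 0.1. Less than 1.5-fold apart were A930005H10Rik (0.58), AI480526 (-0.58), Snhg6 (-0.47) and Snhg20 (-0.55) with a pseudocount of 5, Snhg6 (-0.57) and Snhg20 (-0.53) after rescaling and Snhg20 (-0.58) after centring. No paired analysis was possible because each concentration had a single library. Depth limits genes of few fragments, such as Halr1, and shared sequence limits 43 of the 158.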
